A study of Mus musculus with 15 samples.

Results

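The genes described here are the 7 sirtuins, Sirt1, Sirt2, Sirt3, Sirt4, Sirt5, Sirt6 and Sirt7, and 3 enzymes that set the supply of their cosubstrate NAD, Nampt, Cd38 and Nnmt. They were taken by name, by a rule that uses no measured value, but with earlier results of these data known. They are 10 of the 37991 gene identifiers counted in mouse liver. All 10 were among the 14258 genes that passed the filter on low counts. RNA sequencing was carried out on whole liver from 15 female C57BL/6 mice in 3 groups of 5, each library from 1 animal. The young WT group was killed at 90 days of age and the old WT group at 600 days. The old KO group was also killed at 600 days and carried a constitutive, whole-body deletion of S6K1, the kinase encoded by Rps6kb1. WT and KO mice came from heterozygous breeding and received the same chow. No young KO mice were sequenced, so genotype was compared at 600 days only. In whole liver, a lower level from fewer cells of a type and a lower level from less RNA per cell cannot be told apart.

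NAD carries electrons in metabolism and is also consumed as a substrate. Sirtuins use it to remove acetyl and other acyl groups from proteins and release nicotinamide, CD38 breaks it down, and NAMPT starts the return of nicotinamide to NAD as the rate-limiting enzyme of salvage. NNMT methylates nicotinamide and so takes it out of that cycle. In liver, SIRT1, SIRT6 and SIRT7 act mainly in the nucleus, SIRT2 mainly in the cytosol and SIRT3, SIRT4 and SIRT5 in mitochondria, and Nampt is known as a gene under control of the circadian clock.

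A pair of promoters is shown because Nampt was the one member whose level passed the test with age, and Sirt1 was the one member whose promoter held the clock factors' E-box. They are the 250 bases before the RefSeq start site, in GRCm38.p6, written 5′ to 3′ on the strand of the gene. Capitals mark the E-box, CACGTG, and the GC box, GGGCGG, on either strand, with overlapping matches run together.

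Nampt, chr12:32820085-32820334, plus strand: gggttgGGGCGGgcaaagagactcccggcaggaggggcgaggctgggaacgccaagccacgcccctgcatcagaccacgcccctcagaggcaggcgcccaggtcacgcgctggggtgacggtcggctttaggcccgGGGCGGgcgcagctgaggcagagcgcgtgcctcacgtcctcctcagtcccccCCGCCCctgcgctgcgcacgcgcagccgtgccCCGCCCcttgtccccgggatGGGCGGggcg

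Sirt1, chr10:63339036-63339285, minus strand: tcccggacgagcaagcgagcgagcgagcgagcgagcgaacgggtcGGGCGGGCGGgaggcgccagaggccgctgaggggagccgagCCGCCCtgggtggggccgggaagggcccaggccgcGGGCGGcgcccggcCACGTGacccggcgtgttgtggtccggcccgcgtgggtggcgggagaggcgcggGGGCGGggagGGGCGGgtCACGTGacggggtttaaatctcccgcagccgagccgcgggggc

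The Nampt sequence held 5 GC boxes and no E-box, and its GC content was 75.6%. The Sirt1 sequence held 2 E-boxes, starting 115 and 43 bases before the start site, and 6 GC boxes, and its GC content was 79.2%, against a median of 52.4% over all promoters. Among 32851 promoters of this length an E-box stood in 6.02% and a GC box in 32.7%. RefSeq promoters were found for 9 of the 10 members, all but Nnmt, with 11 start sites in all. A GC box was present in 7 of these members and the CCAAT box, CCAAT, in 3, against 33.8% of all promoters. The element bound by REV-ERB and ROR, TAGGTCA, was found in Sirt5 alone, against 2.23% of all promoters. The D-box, TTANGTAA, the cAMP response element, TGACGTCA, and a FOXO element, GTAAACA, were in no member and in 2.06%, 1.55% and 3.17% of all promoters. A match describes these letters only and does not show that a factor binds there.

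Total counts per library lay between 21801754 and 38065359, and each library had counts for 18440 to 19808 genes. Levels are given as CPM, counts divided by the TMM-scaled library size and set to a common total, and tests are edgeR's quasi-likelihood test adjusted over all 14258 genes, with a threshold of 0.05. The targeted gene, Rps6kb1, lay between 33.3 and 45.4 CPM in the 10 WT libraries and between 15.2 and 20.8 CPM in the 5 old KO libraries, so every library had the level of its labelled genotype. The summed level of 10 hepatocyte markers was 88170 to 135700 CPM in young WT, 99240 to 142400 CPM in old WT and 117900 to 154000 CPM in old KO, with no marker at 0 in every library. The contrasts of age (old WT against young WT) and of genotype (old KO against old WT) share the old WT libraries, and the contrast of old KO against young WT shares its libraries with both.

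Nampt rose with age and was the only one of the 10 genes that did. It lies on chromosome 12 from 33505200 to 33538234 (NCBIM37, plus strand, ENSMUSG00000020572). Its level in young WT 1, 2, 3, 4 and 6 was 61.6, 61.2, 88.0, 54.8 and 83.6 CPM. In old WT 1, 4, 5, 7 and 10 it was 76.2, 107.9, 76.2, 115.8 and 127.6 CPM, and in old KO 1, 2, 4, 5 and 6 it was 105.5, 80.6, 86.3, 97.5 and 100 CPM. Of the old WT libraries 3 lay above every young WT library and the other two fell between the young WT values, so the groups overlapped. The fitted log2 fold change with age was 0.53 (SE 0.161, 95% interval 0.19 to 0.87, adjusted p 0.0319), a 1.44-fold higher level with an interval of 1.14 to 1.83. All 5 old WT libraries were above the young WT median. The exact 2-sided permutation p was 0.0476 (n = 5 each), or 0.238 when adjusted over the 30 exact tests made on the members. Of the 10 members 1 passed the test with age, against 18.8% of all genes tested, and no member had separate groups, against 11.4% of all genes tested.

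The call on Nampt depended on single libraries. The log2 fold change stayed between 0.43 and 0.64 when 1 library at a time was left out, but it passed the threshold in 9 of these 15 fits (adjusted p 0.0187 to 0.0844). It was lost without young WT 1 (0.49), young WT 2 (0.48), young WT 4 (0.44), old WT 4 (0.51), old WT 7 (0.48) or old WT 10 (0.43). Fitted on the 10 WT libraries alone, the change was 0.52 with an adjusted p of 0.0651.

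In old KO livers Nampt stood near the old WT level, at 94.0 ± 10.3 CPM against 100.7 ± 23.5 CPM (SD, n = 5 each). The log2 fold change with genotype was -0.10, with an interval of -0.44 to 0.24 (edgeR adjusted p 0.875). Old KO against young WT gave 0.43 (interval 0.09 to 0.77), which did not pass the threshold after adjustment (edgeR adjusted p 0.0642). It did pass in that contrast fitted on its own 10 libraries (adjusted p 0.0434), without young WT 3 (0.53, adjusted p 0.0357) and without young WT 6 (0.50, adjusted p 0.0393), the highest young WT libraries.

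The genes whose levels followed Nampt most closely over the 15 libraries, among 12122 genes with a mean of at least 1 CPM, were Mtcp1 (ENSMUSG00000090110), Atp11b and Kif2a. Their Pearson correlations with Nampt in log2 CPM were 0.899, 0.88 and 0.872, and 0.839, 0.774 and 0.837 when each value was taken as its deviation from its group mean. These are descriptions of libraries that share their scaling and depth.

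**Figure D1:**
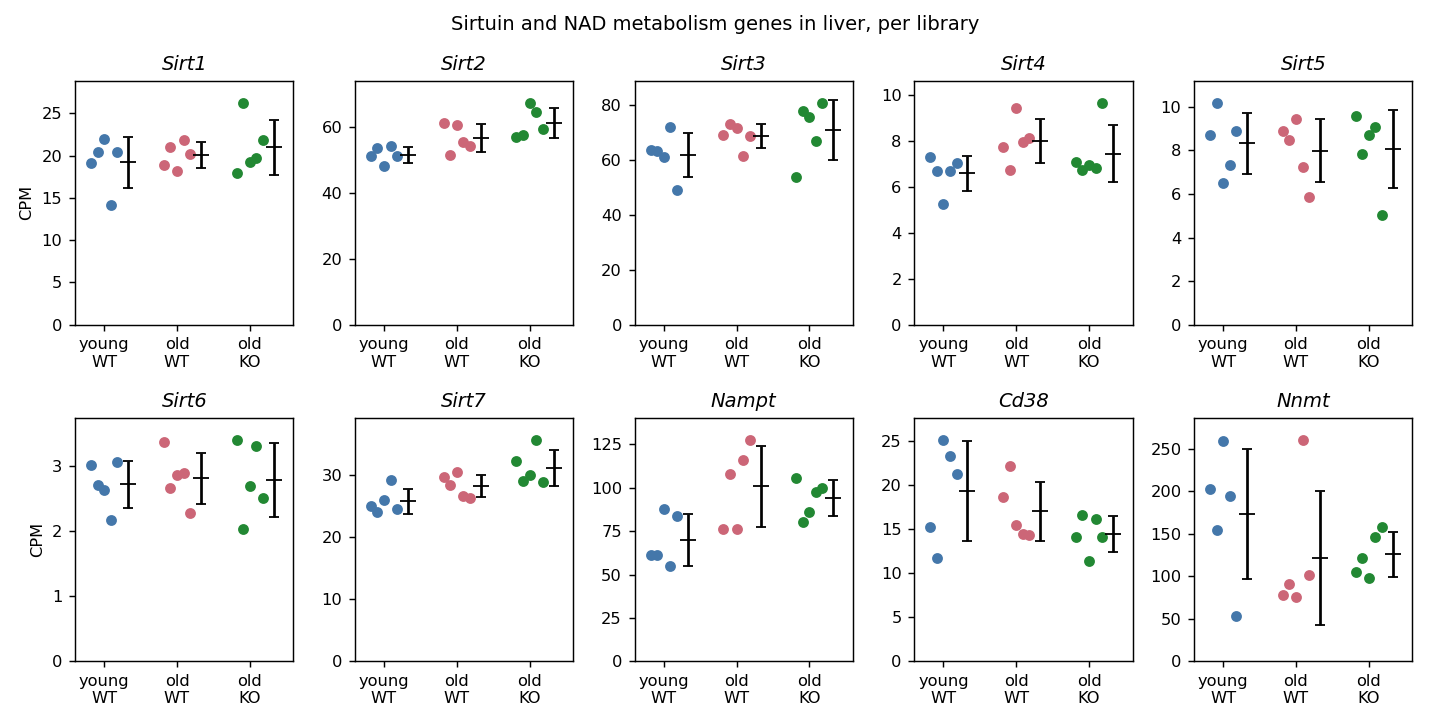
Level of each member in CPM (vertical axis, from 0) by group. Each point is 1 library, ordered within a group by replicate number, and the bar beside it is the mean ± SD over 5 libraries. The old WT points of Nampt reach 127.6 CPM and overlap the young WT points, 1 old WT point of Nnmt stands at 260.5 CPM, and the Sirt2 points of old KO all lie above those of young WT.

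Nnmt, the nicotinamide methyltransferase, was the most variable member. It lies on chromosome 9 from 48399982 to 48413258 (minus strand, ENSMUSG00000032271). Its level in young WT 1, 2, 3, 4 and 6 was 202.8, 154.7, 259.1, 194.9 and 53.3 CPM. The old WT libraries in the same order as above had 77.8, 90.7, 76.3, 260.5 and 101.7 CPM, and the old KO libraries had 104.7, 121.5, 98.2, 145.9 and 158.6 CPM. Young WT 6 was the lowest library of all and old WT 7 the highest, the latter far from the rest of its group. The change with age was -0.51 in log2 (SE 0.370, interval -1.296 to 0.27, edgeR adjusted p 0.354). Without old WT 7 it was -0.99 and passed the threshold (edgeR adjusted p 0.0346, where the 15 fits with a library removed gave 0.0346 to 0.623). The change with genotype was 0.05 (interval -0.73 to 0.83, edgeR adjusted p 0.982) and without old WT 7 it was 0.53 (edgeR adjusted p 0.534). The interval spans folds of 0.602 to 1.78, so a change of moderate size in either direction was not detectable.

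Cd38, which encodes the NAD-degrading ectoenzyme found on many leukocytes, was lowest in old KO but did not pass the test in any contrast. It lies on chromosome 5 from 44260048 to 44303614 (plus strand, ENSMUSG00000029084). Its level in the 5 young WT libraries was 15.2, 11.7, 25.1, 23.3 and 21.2 CPM. The old WT libraries had 18.6, 22.1, 15.5, 14.5 and 14.3 CPM, and the old KO libraries had 14.1, 16.6, 11.4, 16.1 and 14.1 CPM. The 3 groups overlapped. In log2 the difference was -0.18 with age (interval -0.58 to 0.21, edgeR adjusted p 0.524) and -0.23 with genotype (interval -0.63 to 0.16, edgeR adjusted p 0.688). Old KO against young WT gave -0.42 (interval -0.81 to -0.02, edgeR adjusted p 0.118), and -0.55 without young WT 2, the lowest young WT library, where it passed (adjusted p 0.0277, and 0.0277 to 0.280 over the 15 fits).

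Marker genes of leukocytes also differed between the groups in which Cd38 was compared. Over all genes tested 18.8% passed with age and 0.533% with genotype. With age Cd38 had a log2 fold change below 0 that did not pass. The median was above 0 for leukocyte common genes (0.63) and for monocyte and macrophage (0.47), B and plasma cell (0.71) and T and NK cell markers (0.80). Of 15 monocyte and macrophage markers 6 fell with genotype and 14 had a log2 fold change below 0, and their summed level was 208.3 to 441.8 CPM in young WT, 282.8 to 602.3 CPM in old WT and 158.2 to 260.7 CPM in old KO. With age 3 of the 15 rose and 1 fell. Of 9 B and plasma cell markers 4 rose with age, from a sum of 7.36 to 16.7 CPM in young WT to 42.3 to 108.3 CPM in old WT, and the old KO sum was 56.6 to 684.1 CPM. Of 8 leukocyte common genes 4 rose with age and 1 fell with genotype, and of the 9 T and NK cell markers tested 3 rose with age. With genotype all 8 and all 9 had a log2 fold change below 0, and none of the 9 passed. Of 8 endothelial markers 2 fell with age. No marker of these lists was at 0 in every library. The part of these cells in the level of Cd38 was not tested.

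Sirt1, Sirt6 and Sirt7 encode the nuclear sirtuins, of which SIRT7 is known for its place at the nucleolus and SIRT6 for DNA repair and glucose metabolism. Sirt7 lies on chromosome 11 from 120479686 to 120486554 (minus strand, ENSMUSG00000025138) and shares 124 exonic bases with Mafg on the same strand. Its level was 25.0, 24.0, 26.0, 29.1 and 24.5 CPM in young WT, 29.6, 28.3, 30.4, 26.6 and 26.3 CPM in old WT, and 32.2, 28.9, 29.9, 35.6 and 28.9 CPM in old KO. Of the old KO libraries 3 lay above every young WT library, and young WT 4 was the one young library within the old KO range. Sirt7 rose in old KO against young WT by a log2 fold change of 0.27 (SE 0.0779, interval 0.11 to 0.44, edgeR adjusted p 0.0194). Its steps with age, 0.13 (edgeR adjusted p 0.243), and with genotype, 0.14 (edgeR adjusted p 0.521), did not pass. The call was lost without old KO 5, the highest library (0.22, adjusted p 0.0556).

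Sirt1, on chromosome 10 from 62781753 to 62844452 (minus strand, ENSMUSG00000020063), had nearly level groups. Young WT libraries had 19.2, 20.5, 22.04, 14.1 and 20.4 CPM, old WT libraries had 18.9, 21.1, 18.2, 21.9 and 20.2 CPM, and old KO libraries had 17.9, 26.2, 19.3, 19.7 and 21.9 CPM. The lowest value was in young WT 4 and the highest in old KO 2, and the remaining 13 libraries lay between 17.9 and 22.04 CPM. In log2 the change was 0.06 with age (interval -0.19 to 0.31, edgeR adjusted p 0.760) and 0.07 with genotype (interval -0.19 to 0.32, edgeR adjusted p 0.892).

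Sirt6, on chromosome 10 from 81084530 to 81090542 (minus strand, ENSMUSG00000034748), was the least abundant member, with 54 to 115 counts in a library. The group means were 2.72 ± 0.361, 2.82 ± 0.397 and 2.79 ± 0.573 CPM in young WT, old WT and old KO (SD, n = 5 each). The groups overlapped almost entirely, and the log2 fold change was 0.05 with age (interval -0.29 to 0.39, edgeR adjusted p 0.853) and -0.01 with genotype (interval -0.36 to 0.33, edgeR adjusted p 0.992).

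Sirt2, which encodes the cytosolic tubulin deacetylase, lies on chromosome 7 from 29551754 to 29573684 (plus strand, ENSMUSG00000015149) and shares 42 exonic bases with Nfkbib on the opposite strand. Its level was 51.0, 53.5, 48.0, 54.2 and 51.1 CPM in young WT, the tightest group. It was 61.0, 51.4, 60.6, 55.5 and 54.3 CPM in old WT and 56.8, 57.4, 67.1, 64.5 and 59.2 CPM in old KO. All 5 old KO libraries lay above all 5 young WT libraries, while the old WT libraries overlapped both groups. In old KO against young WT, Sirt2 rose by a log2 fold change of 0.24 (SE 0.0699, interval 0.09 to 0.39, edgeR adjusted p 0.0204), and the exact 2-sided permutation p was 0.00794 (n = 5 each), the smallest that 5 against 5 can give, or 0.238 when adjusted over the 30 tests. The steps with age, 0.13 (interval -0.01 to 0.28, edgeR adjusted p 0.192), and with genotype, 0.11 (interval -0.04 to 0.26, edgeR adjusted p 0.583), did not pass. Sirt2 lost its call without old KO 4 (0.21, adjusted p 0.0613) or old KO 5 (0.22, adjusted p 0.0519), and with no filter on low counts (0.24, adjusted p 0.0555).

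With Sirt2 and Sirt7, 2 of the 10 members passed in old KO against young WT, against 23.3% of all genes tested, and 1 had separate groups, against 13.9%. With Sirt7 as the member of lowest edgeR adjusted p (0.521), none passed with genotype, against 0.533% of all genes tested, and none had separate groups, against 3.20%. No member had an unadjusted p under 0.05 with genotype in edgeR, against 1661 of all 14258 genes tested, and DESeq2 also called 0. The intervals of all 7 sirtuins for genotype lay within log2 fold changes of -0.37 and 0.38, that is within folds of 0.773 and 1.30, and those of Cd38 and Nnmt were wider.

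The mitochondrial sirtuins did not pass the test in any contrast. Sirt3, the main mitochondrial deacetylase, lies on chromosome 7 from 148049569 to 148068208 (minus strand, ENSMUSG00000025486), where its exons share 152 bases with Psmd13 and 61 bases with Ric8 on the opposite strand. Its level was 63.3, 63.3, 60.9, 71.7 and 49.1 CPM in young WT, 69.0, 72.9, 71.5, 61.5 and 68.4 CPM in old WT, and 53.5, 77.8, 75.4, 66.7 and 80.5 CPM in old KO. The lowest libraries were young WT 6 and old KO 1. On the log2 scale Sirt3 differed by 0.15 with age (interval -0.08 to 0.39, edgeR adjusted p 0.347) and 0.04 with genotype (interval -0.19 to 0.28, edgeR adjusted p 0.931).

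Sirt4, which encodes a mitochondrial lipoamidase and ADP-ribosyltransferase, lies on chromosome 5 from 115928019 to 115934734 (minus strand, ENSMUSG00000029524). It had 7.29, 6.69, 5.28, 6.69 and 7.03 CPM in young WT, 7.75, 6.72, 9.42, 7.95 and 8.12 CPM in old WT, and 7.08, 6.76, 6.94, 6.83 and 9.65 CPM in old KO. Of the old WT libraries 4 lay above every young WT library and old WT 4 lay among the young ones, while 4 of the old KO libraries lay in a narrow band within the young WT range and old KO 6 was higher than any other library. The log2 fold change with age was 0.28 (SE 0.126, interval 0.01 to 0.54). Its unadjusted edgeR p was 0.0422 and its adjusted p 0.135, and the exact 2-sided permutation p was 0.0238 (n = 5 each), or 0.238 when adjusted over the 30 tests. The change with genotype was -0.10 (interval -0.37 to 0.16, edgeR adjusted p 0.822).

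Sirt5, the mitochondrial desuccinylase, on chromosome 13 from 43460882 to 43490571 (plus strand, ENSMUSG00000054021), had group means of 8.32 ± 1.42, 7.99 ± 1.44 and 8.05 ± 1.79 CPM in young WT, old WT and old KO (SD, n = 5 each). Its lowest libraries were old KO 6 at 5.06 CPM and old WT 10 at 5.88 CPM, its highest was young WT 2 at 10.2 CPM, and the groups overlapped. The log2 fold change was -0.06 with age (interval -0.42 to 0.31, edgeR adjusted p 0.848) and 0.01 with genotype (interval -0.36 to 0.38, edgeR adjusted p 0.994).

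**Figure D2:**
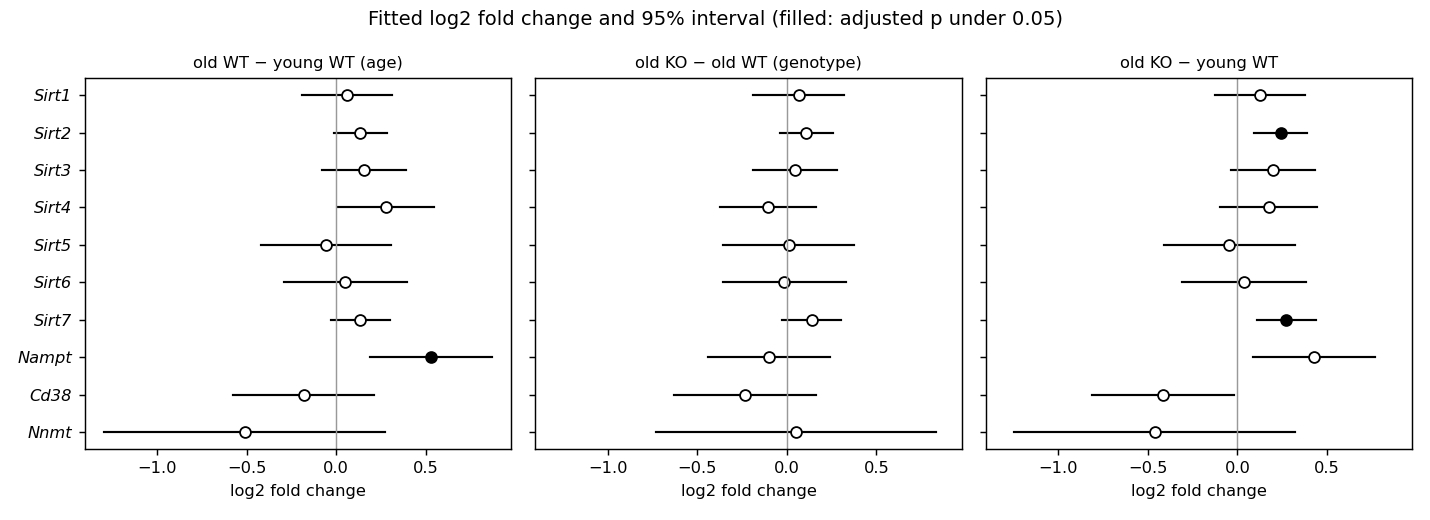
Fitted log2 fold change of each member (horizontal axis) with its 95% interval in the 3 contrasts, from edgeR on all 15 libraries. Filled points passed an adjusted p of 0.05, which was the case for Nampt with age (0.53) and for Sirt2 (0.24) and Sirt7 (0.27) in old KO against young WT, and Nnmt has the widest interval in each panel.

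Across the 10 members the median log2 fold change was 0.10 with age, 0.03 with genotype and 0.15 in old KO against young WT, while the median of all genes tested was 0.01, 0.00 and -0.01. Members above 0 numbered 7, 6 and 7 in the 3 contrasts. With age 6 of the 7 sirtuins lay above 0, all but Sirt5, in a range of -0.06 to 0.28.

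Levels of different genes were compared per kilobase of merged exon (RPKM). Merged length joins the exons of all annotated transcripts, which are 11 transcripts and 5148 bases for Sirt7. The order of genes and the sirtuin shares below therefore depend on the annotation. Averaged over the 15 libraries, Nnmt stood first at 88.9 RPKM, followed by Sirt3 at 42.7, Nampt at 19.4, Sirt2 at 15.8, Cd38 at 5.61, Sirt7 at 5.51, Sirt1 at 3.77, Sirt5 at 3.75, Sirt4 at 3.06 and Sirt6 at 0.997 RPKM. The ranges over libraries did not overlap between Sirt3 and Nampt, between Sirt2 and Cd38, or between Sirt4 and Sirt6. Nnmt was above Sirt3 within each of the 15 libraries although their ranges overlapped, and the same held for Sirt7 over Sirt1. The ranges of the other neighbours overlapped, with Nampt above Sirt2 in 10, Cd38 above Sirt7 in 6, Sirt1 above Sirt5 in 6 and Sirt5 above Sirt4 in 13 of the 15 libraries. Some of these orders differed between group means. Cd38 was above Sirt7 in young WT, at 6.41 against 4.996 RPKM, and below it in old KO, at 4.79 against 6.04 RPKM, where no library had Cd38 above Sirt7. Nampt was above Sirt2 in 2 of 5 young WT, 3 of 5 old WT and 5 of 5 old KO libraries. Sirt1 was below Sirt5 in young WT, at 3.61 against 3.84 RPKM, and above it in old KO, at 3.94 against 3.71 RPKM, and these differences were not tested.

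Sirt3 made up most of the sirtuin mRNA per kilobase. Its share of the summed RPKM of the 7 sirtuins was 56.0% in young WT, 56.9% in old WT and 56.1% in old KO, with single libraries between 49.98% and 60.4%. Sirt2 followed with 20.7%, 20.6% and 21.5%, and Sirt7 with 7.16%, 7.13% and 7.62%. The summed level was 69.9 ± 5.22, 76.9 ± 3.74 and 80.0 ± 6.91 RPKM (SD, n = 5 each). The shares of each sirtuin thus lay close together in the 3 groups while the sum was highest in the old groups, and the ranges of the sum overlapped.

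**Figure D3:**
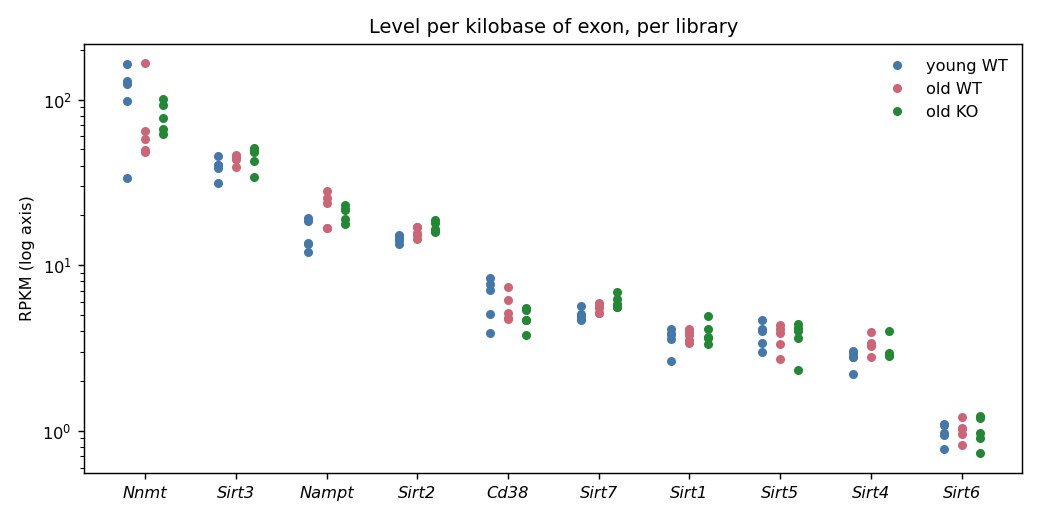
Level of each member in RPKM on a log axis, 1 point a library, coloured by group and ordered by the mean over 15 libraries. Nnmt (88.9 RPKM) spans the widest range, Sirt3 (42.7 RPKM) stands above the other sirtuins in each library, and Sirt6 (0.997 RPKM) lies lowest.

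The other genes of NAD metabolism were taken from a list of 49, of which 47 were found in the table and 43 passed the filter. With age 8 of the 43 rose and 3 fell, where 18.8% of all genes tested passed, and their median log2 fold change was 0.09. In old KO against young WT again 8 rose and 3 fell, where 23.3% of all genes tested passed. With genotype none passed in edgeR, against 0.533% of all genes tested. An unadjusted p under 0.05 was found for 6 of the 43, against 1661 of all 14258 genes tested. DESeq2 called 1 of them, and 309 over all genes. That gene was Parp16, named after its values were seen (edgeR 0.47, edgeR adjusted p 0.153). Ido1, Nmrk2, Pnp2 and Aox4 were below the filter, with 3, 15, 48 and 0 counts over the 5 young WT libraries, 0, 7, 28 and 1 over the old WT and 1, 4, 39 and 0 over the old KO libraries.

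In the route from tryptophan, the 2 tested enzymes of the first step moved in opposite directions with age. Tdo2, the abundant hepatic tryptophan dioxygenase, fell from 2409 ± 652 to 1285 ± 455 CPM (SD, n = 5 each), which is -0.91 in log2 (edgeR adjusted p 0.0172). Old WT 7 at 1992 CPM was the only old WT library within the young WT range, and the old KO mean was 1309 ± 344 CPM. Ido2, a related dioxygenase, rose from 32.1 ± 7.72 to 64.6 ± 10.48 CPM, with a log2 fold change of 1.01 (edgeR adjusted p 0.00111) and no overlap between the groups. Its level in old KO was 71.4 ± 12.0 CPM. Haao, which makes the precursor of quinolinic acid, rose from 220.1 ± 22.5 to 275.7 ± 27.4 CPM (0.33, edgeR adjusted p 0.0301) and passed in 10 of the 15 fits with 1 library left out (0.28 to 0.38, adjusted p 0.0165 to 0.0840), all but those without young WT 1 or 2 or old WT 1, 4 or 5. It did not pass with no filter on low counts (adjusted p 0.0534). Of the 8 genes of this route that were tested, 2 rose and 1 fell, where 18.8% of all genes tested passed.

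The counts by route that follow stand against 18.8% of all genes tested that passed with age. Of 5 genes for the route from nicotinic acid none passed. Naprt, its first enzyme, had a log2 fold change of 0.15 (edgeR adjusted p 0.409). Of 4 tested genes around the salvage of nicotinamide and its riboside, Pnp, the purine nucleoside phosphorylase, rose by 0.36 (edgeR adjusted p 0.0191), with 4 of 5 old WT libraries above all young WT libraries, and did not pass without young WT 4 (0.33, adjusted p 0.0524, the highest of the 15 fits). Of 5 genes for NADP and for NAD transport or turnover, Nnt, the mitochondrial transhydrogenase that passes electrons between NADH and NADP, rose by 0.78 (edgeR adjusted p 0.0351). Nnt had 63.5 to 113.1 CPM in young WT and 116.0 to 179.0 CPM in old WT, without overlap, whereas old KO 1 at 52.9 CPM was below every young WT library and the other 4 old KO libraries had 115.2 to 162.2 CPM. Its call held in 8 of the 15 fits with 1 library left out (0.68 to 0.91, adjusted p 0.00626 to 0.0860) and was lost without young WT 2, 4 or 6 or old WT 1, 4, 5 or 10. Nadk, the cytosolic NAD kinase, had a log2 fold change of -0.02 with age (edgeR adjusted p 0.891).

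Among 19 other NAD-consuming enzymes, 3 rose and 2 fell with age, where 18.8% of all genes tested passed. Parp3, a DNA-break-dependent ADP-ribosyltransferase, rose from 19.98 ± 1.95 to 30.9 ± 4.51 CPM (0.63, edgeR adjusted p 0.00226). Parp6 rose by 0.39 (edgeR adjusted p 0.00596) and Parp11 by 0.49 (edgeR adjusted p 0.0463), the latter passing in 6 of 15 fits with 1 library left out (0.43 to 0.62, adjusted p 0.00708 to 0.110), those without young WT 3 or 6, old WT 7 or old KO 1, 5 or 6. Parp11 also lost its call with no filter (adjusted p 0.0647) and in a fit to the 10 WT libraries (adjusted p 0.0580). Parp4, which encodes the PARP of vault particles, fell from 24.7 ± 2.68 to 18.2 ± 1.03 CPM (-0.44, edgeR adjusted p 0.00180), and Tnks, tankyrase, fell from 29.6 ± 3.19 to 22.8 ± 2.38 CPM (-0.38, edgeR adjusted p 0.0208). Among the genes that passed, the groups did not overlap for Parp3, Parp6, Parp4 or Tnks, where 11.4% of all genes tested had separate groups. With 1 library left out Tnks lost its call without young WT 1 (adjusted p 0.0607, the highest of the 15 fits) or old WT 5. Parp1, which encodes the main nuclear PARP, had a log2 fold change of 0.05 (interval -0.11 to 0.20, edgeR adjusted p 0.686). Aox1, an aldehyde oxidase that oxidizes methylnicotinamide, the product of NNMT, rose from 81.1 ± 13.9 to 119.6 ± 10.4 CPM (0.56, edgeR adjusted p 0.00427) without overlap, and was at 106.8 ± 11.6 CPM in old KO.

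**Figure D4:**
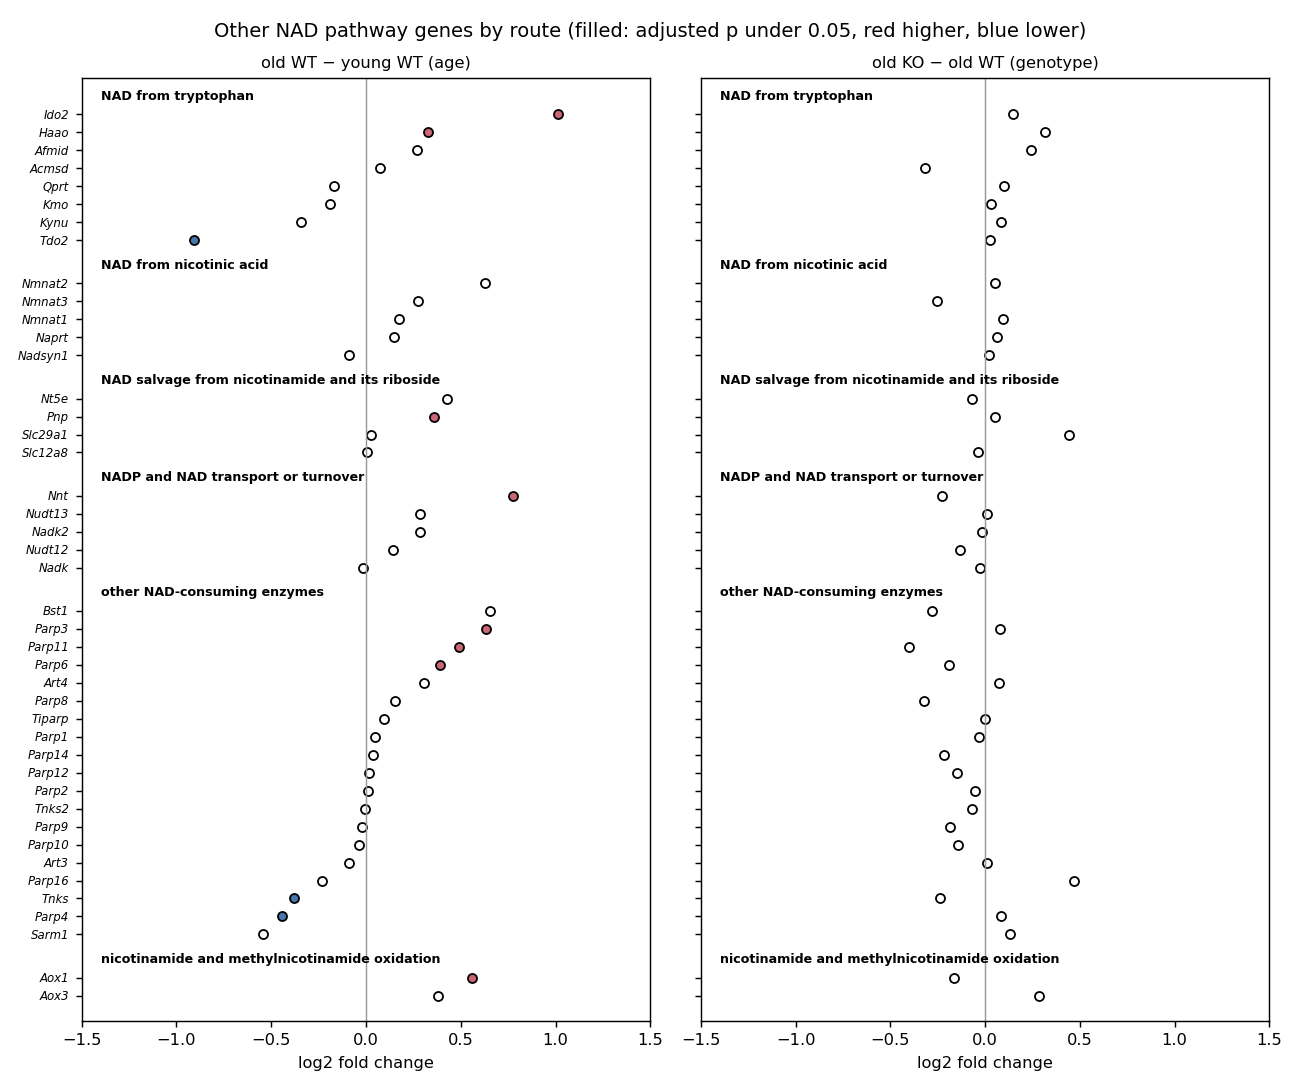
Fitted log2 fold change (horizontal axis) of the 43 tested genes of the NAD pathway list, 1 row a gene in both panels, by route and ordered by the change with age. Filled points passed an adjusted p of 0.05, 8 higher (red) and 3 lower (blue) with age and none with genotype, and Ido2 (1.01) and Tdo2 (-0.91) have the largest changes.

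Since Nampt is a known clock-controlled gene, 17 circadian clock genes were examined beside it. With age Nfil3, a repressor at D-boxes, rose by 1.08 (edgeR adjusted p 0.00382), Npas2, a partner of BMAL1, by 0.99 (edgeR adjusted p 0.00499) and Cry1, a repressor of the clock factors, by 0.69 (edgeR adjusted p 0.0373). Ciart, another repressor, fell from 3.29 ± 3.86 to 0.633 ± 0.436 CPM (-2.39, edgeR adjusted p 0.0155). Young WT 3 was at 10.1 CPM of Ciart and the other young WT libraries at 0.690 to 2.19 CPM, and without it the change was -1.34 (adjusted p 0.0496, and 0.00545 to 0.0496 over all 15 fits). Nr1d1, which encodes REV-ERBα, fell from 33.6 ± 11.7 to 12.2 ± 7.75 CPM (-1.46, edgeR adjusted p 0.0368). The other clock genes did not pass, so 3 of the 17 rose and 2 fell with age, where 18.8% of all genes tested passed. The calls on Cry1 and Nr1d1 each held in 9 of 15 fits with 1 library left out (adjusted p 0.0139 to 0.0868 and 0.0163 to 0.0941). Cry1 lost its call without young WT 2, 4 or 6 or old WT 4, 7 or 10, under limma voom (0.62, adjusted p 0.0634) and in a fit to the 10 WT libraries (0.68, adjusted p 0.0549), and Nr1d1 without young WT 2, 3 or 4 or old WT 4, 7 or 10. Of the 17 clock genes none passed with genotype, against 0.533% of all genes tested. An unadjusted p under 0.05 with genotype was found for 1, against 1661 of all 14258 genes tested. The median over the 17 was 0.03 with age and 0.05 with genotype. The time of day at which livers were taken is not given in the sources used here, and its part in these levels and in that of Nampt was not tested.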

How the data were processed

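Livers were flash frozen and RNA was sequenced from stranded poly(A) libraries as single-end reads. According to the submitters' processing notes the authors used CASAVA, TopHat2 2.0.11, the mm9 genome and DESeq2 1.18.1, and their methods name HTSeq for counting. The annotation and the strand setting of the counting are not given in the sources used here, so levels of genes with overlapping exons are uncertain. The values deposited are raw read counts per gene, neither normalized nor pooled, and 0 columns were left without a sample. Groups and replicate numbers came from the sample titles.

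Counts were scaled by TMM and tested with edgeR 4.0.16 (R 4.3.3; filterByExpr, glmQLFit, glmQLFTest) on all 15 libraries, with Benjamini-Hochberg adjustment over 14258 genes and a threshold of 0.05. The standard error was derived from the test, as the absolute fitted log2 fold change over the square root of the quasi-likelihood F statistic. The 95% interval is the fitted change plus or minus that error times a t quantile at the test's degrees of freedom. CPM is the count over TMM-scaled library size, put on a common total, and RPKM divides it by merged exon length in GENCODE M1 on NCBIM37 (mm9). Exact 2-sided permutation tests used log2 of CPM plus 0.1 over 252 assignments. Every member had 54 or more counts in every library. Counting error is part of the spread between libraries, most so for Sirt6. The intervals rest on the 5 animals of each group. All groups share one estimate of the spread of a gene, so libraries outside a contrast also bear on its intervals. The fit was tested on simulated data.

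The members and lists (NAD pathway by route, sirtuin substrates, clock genes, and markers of hepatocytes, leukocytes, endothelial, stellate, fat and bile duct cells) were chosen with earlier results of these data known. Of 171 list entries 168 matched by symbol, 1 by a RefSeq synonym and 2, Nmrk1 and Slc25a51, by none. All members are named, and of each list at most the 5 genes of lowest adjusted p that passed with age or genotype, plus the first gene of each route. Alternatives were DESeq2 1.42.0, limma 3.58.1 (voom), RLE and upper quartile scaling, no filter, at least 10 counts in every library, only the libraries of the contrast, the replicate number as a block, and each library left out. Promoters came from a RefSeq table on GRCm38.p6.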

Additional observations from a re-analysis of the deposited data

Results flagged for a closer look

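In 30 groups of 5 libraries, the 10 members in each of the 3 groups, Dixon's rule was applied to find a library far from the others, which chance alone flags in about 1 in 20 groups. It was met by 2 values. Sirt4 in old KO 6 was at 9.65 CPM, with the other 4 old KO libraries between 6.76 and 7.08 CPM. Without it the log2 fold change of Sirt4 with genotype was -0.21 (edgeR adjusted p 0.503), against -0.10 with it. Nnmt in old WT 7 was at 260.5 CPM, with the other 4 old WT libraries between 76.3 and 101.7 CPM. The same library had the highest Tdo2 level of its group, at 1992 CPM against 962.0 to 1497 CPM. Libraries of a group were also compared in pairs by chi-square, scaled to its degrees of freedom. Pairs with old WT 7 gave 82.15 to 128.5, and old WT pairs without it gave 19.7 to 54.02. Pairs with young WT 6, the lowest Nnmt library, gave 81.48 to 107.5, and the other young WT pairs gave 30.12 to 63.34. Old KO pairs lay between 31.55 and 90.95. The difference of old WT 7 from its group was therefore not limited to Nnmt and Tdo2. The cause of the Sirt4 or Nnmt value was not tested.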

How the results depend on the processing

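No member passed with genotype under any of the 8 alternatives or 15 fits without 1 library. With age the count of members was 1 and became 0 with only the libraries of the contrast, and 0 or 1 when a library was left out. In old KO against young WT it was 2, became 1 with no filter, and lay between 0 and 3 when a library was left out. With age 11 NAD pathway genes passed, and 7 to 14 when a library was left out. With genotype the pathway count was 0 but 1 under DESeq2, and 0 to 1 when a library was left out. Over all genes 2685 passed with age (1748 without young WT 1, up to 3284), and 76 with genotype, against 309 under DESeq2, 23 under limma voom and 9 to 108 when a library was left out.

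Same-numbered animals did not deviate together over all genes tested (correlations -0.15 to 0.08). The sources do not state that the numbers pair the samples, and a pairing of small effect was not tested. Numbers 3, 7 and 10 each occur in 1 group only, and young WT and old WT share only numbers 1 and 4. A block on the number therefore takes young WT 3, old WT 7 and old WT 10 out of the contrasts and leaves a weaker test. With the replicate number as a block 899 genes, 4 pathway genes and 0 members passed with age (Nampt 0.47, adjusted p 0.147), 6 genes with genotype, and 1 member in old KO against young WT, Nampt (0.56, adjusted p 0.0329), with Sirt2 (adjusted p 0.160) and Sirt7 (adjusted p 0.0741) lost. Among other genes named for age, the block left Parp4 (adjusted p 0.0736), Parp6 (0.0703), Tnks (0.148), Parp11 (0.132), Haao (0.0689), Pnp (0.0714), Nnt (0.136), Idh2 (0.0990), Acss1 (0.369), Ppargc1a (0.0828), Cry1 (0.43, 0.347) and Nr1d1 (-0.72, 0.595) without a call. Under the block the sign turned for Cd38 with age (0.095), for Nampt (0.083), Sirt1 (-0.025), Sirt3 (-0.033) and Sirt5 (-0.098) with genotype, and for Sirt6 in old KO against young WT (-0.021). Sirt5 with genotype was also below 0 under limma voom (-0.00266) and upper quartile scaling (-0.0067).

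When a library was left out, sign changes occurred where the change was small. The log2 fold changes with age then ran from -0.044 to 0.12 for Sirt1, -0.125 to 0.035 for Sirt5, -0.032 to 0.12 for Sirt6 and -0.0502 to 0.0129 for Nadk. With genotype they ran from -0.033 to 0.12 for Sirt1, -0.0063 to 0.13 for Sirt3, -0.081 to 0.14 for Sirt5, -0.098 to 0.077 for Sirt6 and -0.078 to 0.53 for Nnmt. In old KO against young WT they ran from -0.12 to 0.080 for Sirt5 and -0.046 to 0.14 for Sirt6. None of these passed the threshold. The cause of each shift was not tested. With 5 animals a group and changes under 0.30 for the sirtuins, depth limits Sirt6 most, at 54 to 115 counts.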

Other observations

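Of 13 enzymes and regulators known as sirtuin substrates, 3 rose and 2 fell with age, where 18.8% of all genes tested passed. The share over all genes was 0.533% with genotype and 23.3% in old KO against young WT. Glud1, the glutamate dehydrogenase that SIRT4 modifies, went up from 984.0 ± 119.7 to 1404 ± 182.8 CPM (SD, n = 5 each), or by 0.51 in log2 (edgeR adjusted p 0.00438) with no overlap between the groups. Idh2, the mitochondrial isocitrate dehydrogenase that SIRT3 deacetylates, rose by 0.41 (edgeR adjusted p 0.00780), also without overlap. Over all genes tested 11.4% had separate groups with age. Acss1, a mitochondrial acetyl-CoA synthetase, rose by 1.16 (edgeR adjusted p 0.0352) from a low level of 0.382 ± 0.156 to 0.881 ± 0.456 CPM, and passed in 9 of the 15 fits with 1 library left out (adjusted p 0.0252 to 0.0899), all but those without young WT 1, 2, 3 or 6 or old WT 4 or 7. It lost its call with no filter (adjusted p 0.0501) and in a fit to the 10 WT libraries (adjusted p 0.0632). Cps1, the first enzyme of the urea cycle and a target of SIRT5, fell from 7839 ± 2587 to 3256 ± 2023 CPM (-1.27, edgeR adjusted p 0.0197), a call lost without old WT 1 (adjusted p 0.0523, the highest of the 15 fits) or old WT 5. Ppargc1a, the coactivator PGC-1α that SIRT1 deacetylates, fell from 39.8 ± 21.5 to 20.1 ± 8.76 CPM (-0.98, edgeR adjusted p 0.0443), and passed in 5 of the 15 fits (adjusted p 0.00999 to 0.126), those without young WT 1, 2 or 6, old WT 7 or old KO 6. It did not pass under limma voom (adjusted p 0.0632), with upper quartile scaling (adjusted p 0.0514) or in a fit to the 10 WT libraries (adjusted p 0.0819). In old KO livers Glud1 was at 1348 ± 66.1 CPM, Idh2 at 158.0 ± 17.99 CPM and Cps1 at 4875 ± 1235 CPM. None of the 13 passed with genotype, and 1 had an unadjusted p under 0.05, against 1661 of all 14258 genes tested. The change with genotype was 0.58 for Cps1 (edgeR adjusted p 0.539) and -0.70 for Acss1 (edgeR adjusted p 0.475). In old KO against young WT 4 rose, Glud1 by 0.45 (edgeR adjusted p 0.00658) and Idh2 by 0.45 (edgeR adjusted p 0.00339) among them.

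The remaining marker lists stood as follows, where 18.8% of all genes tested passed with age and 0.533% with genotype. Of 8 stellate cell and fibroblast markers 1 rose and 1 fell with age, and of 6 cholangiocyte markers 1 rose. Of 8 adipocyte markers 3 passed the filter and 1 fell with age, and their summed level was 29.5 to 138.3 CPM in young WT, 24.7 to 30.3 CPM in old WT and 14.9 to 28.7 CPM in old KO. Of 10 hepatocyte markers 1 fell with age, where 7 had a log2 fold change below 0 and 3 above 0. With genotype all 10 lay above 0, with a median of 0.26, against 0.0008 over all genes tested. No marker of these lists passed with genotype.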
